A study of Homo sapiens with 8 samples.

Results

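The genes described here are amino acid transporters of the solute carrier (SLC) families SLC1, SLC3, SLC7, SLC36, SLC38 and SLC43. Every gene symbol of these families in the deposited table was taken, which gave 40 of 23615 genes, and no expression value was used to choose them. Expression was measured by RNA sequencing of total RNA after depletion of ribosomal RNA in 4 human cell lines with 2 libraries each, 8 libraries in all. The lines were U937, a leukemic line, EaHy, an endothelial line, PC3M, a prostate cancer line grown as PC3M-LN4 cells, and HEK293, an embryonic kidney line. The study asked which receptors the lines that bind epoxyeicosatrienoic acids (EETs, lipid mediators) share and the non-binding line lacks, and its design text counts 3 binding lines and 1 non-binding line. U937 and EaHy grew in RPMI medium, PC3M in RPMI medium with added L-glutamine, and HEK293 in DMEM, all with penicillin/streptomycin and heat-inactivated serum. No agent, gene change or time course separates the groups. Except between U937 and EaHy, which shared RPMI medium, line and medium cannot be told apart. This bears directly on genes that carry amino acids. Cells were collected in duplicate, and no label says that the duplicates were separate cultures, so p-values measure the spread between libraries that may be technical.

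Amino acid transporters move amino acids across the plasma membrane and the membrane of the lysosome. SLC7 light chains such as LAT1 (SLC7A5) and xCT (SLC7A11) reach the cell surface only when joined to an SLC3 heavy chain, and they exchange one amino acid for another. SLC1A5 (ASCT2) and the SLC38 carriers take up glutamine, the SLC7 cationic carriers take up arginine and lysine, and the SLC1 glutamate carriers take up glutamate and aspartate against steep gradients. Members of SLC36 and SLC38 in the lysosome release amino acids from it, and the kinase complex mTORC1 responds to amino acids.

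Values were FPKM (fragments per kilobase of transcript, scaled to the number of mapped fragments), which allow levels of different genes to be set side by side per length. No read counts were used, so the depth is unknown and no detection floor is given. The libraries differed in scale. EaHy replicate 2, PC3M replicate 1 and PC3M replicate 2 held 275616 to 506736 FPKM of the small noncoding RNA RMRP, against 12.3 to 1131 FPKM in the other 5 libraries. The median log2(FPKM + 0.5) of the 16295 tested genes ranged from 1.74 to 2.98 in 7 libraries and was 0.52 in PC3M replicate 2. In PC3M replicate 2 the 28 tested transporters stood lower than in replicate 1 by a median of 1.33 on the log2 scale, and in HEK293 25 of the 28 were higher in replicate 2. Over all tested genes the median log2 difference from HEK293 was −0.22 in U937, −0.67 in EaHy and −1.26 in PC3M as deposited. It was −0.10, −0.23 and −0.29 after upper-quartile scaling, and 0.04, −0.08 and 0.00 after quantile normalization. A PC3M difference from HEK293 is therefore to be read against −1.26, not against 0.

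Defining markers of the labelled types were checked first. By line mean, all 7 monocytic markers were highest in U937, 6 of 7 endothelial markers were highest in EaHy, and all 7 embryonic kidney and neuronal markers were highest in HEK293. Of 7 epithelial and prostate markers, 1 was highest in PC3M: EPCAM stood at 36.9 and 10.5 FPKM there and at most 1.12 elsewhere. The prostate marker KLK3 was at or under 0.0138 FPKM in both PC3M libraries, so it does not show the labelled prostate origin. The monocytic markers summed to 588 and 2117 FPKM for U937, 49.5 and 21.7 for EaHy, and 1.58 to 4.63 in the other 4 libraries.

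Of the 40 transporters, 28 reached 0.5 FPKM in at least 2 of the 8 libraries and were tested, and 12 did not. Those 12 were SLC1A2, SLC1A6, SLC1A7, SLC3A1, SLC7A4, SLC7A9, SLC7A13, SLC7A14, SLC36A3, SLC38A4, SLC38A8 and SLC38A11. They include the glutamate carriers of glia, Purkinje cells and retina and the kidney cystine pair SLC3A1 and SLC7A9. Their highest value in any library was 0.547 FPKM, for SLC7A14 in EaHy replicate 1, and the other 11 stayed at or under 0.363. At 0.5 FPKM in both libraries of a line, 21 transporters were present in U937, 21 in EaHy, 19 in PC3M and 24 in HEK293. With the same limit after upper-quartile scaling these numbers were 21, 22, 21 and 24. SLC3A2, SLC1A5, SLC38A2, SLC38A1 and SLC38A10 were at or above 3.35 FPKM in all 8 libraries, while SLC43A3 and SLC7A5, which reached 188 and 153 FPKM in U937 replicate 2, were not.

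**Figure D1:**
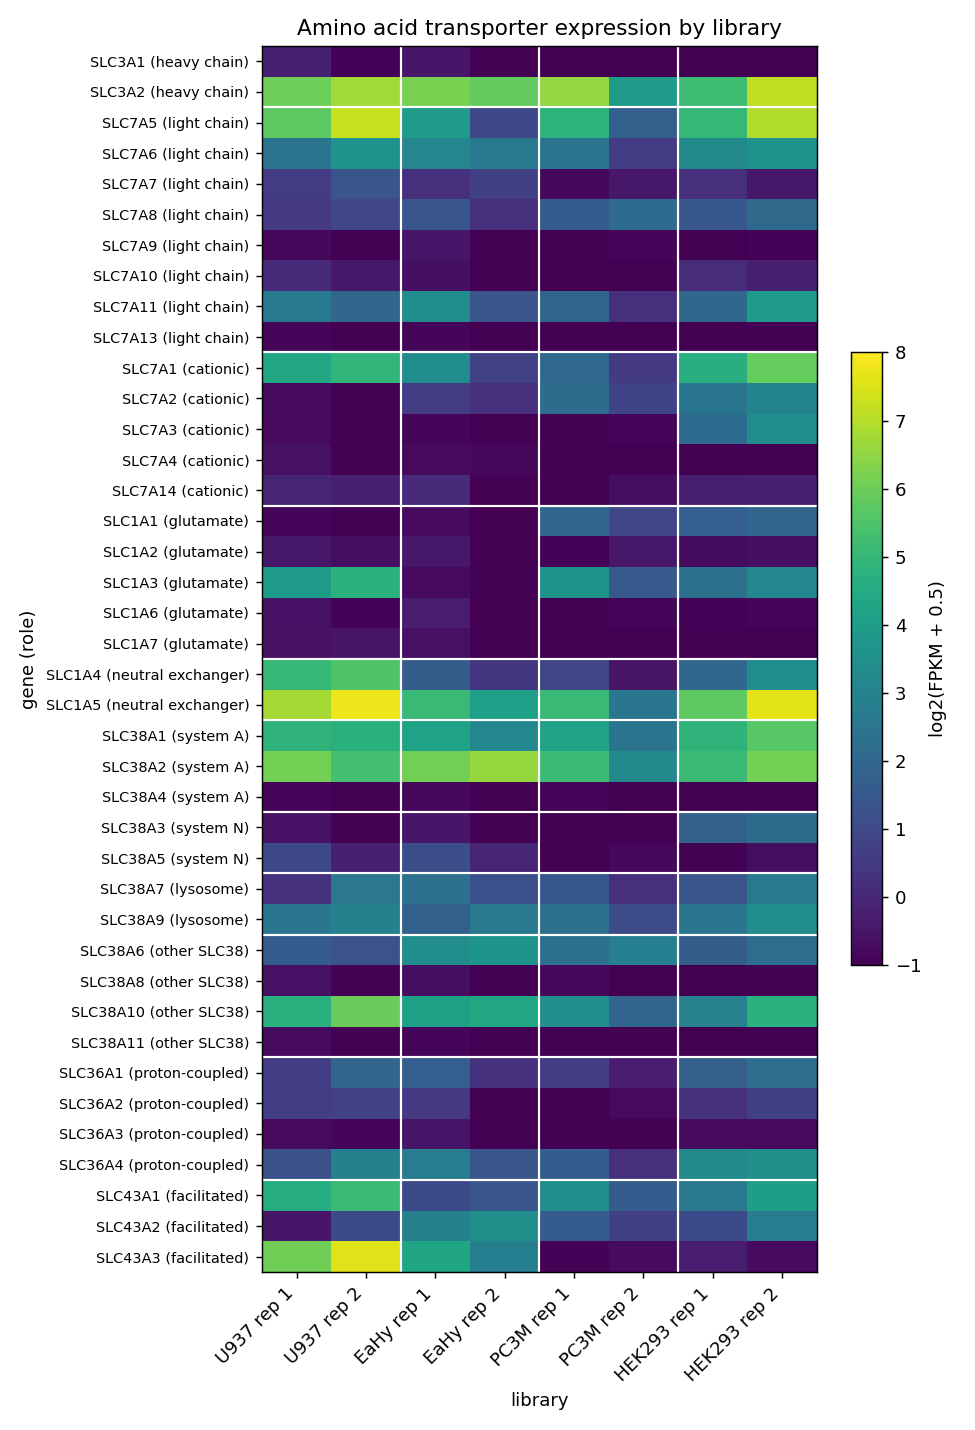
Expression of the 40 transporters (rows, grouped by role) in the 8 libraries (columns), as log2(FPKM + 0.5) on a colour scale from −1 to 8. SLC3A2, SLC1A5 and SLC38A2 are bright in all libraries but PC3M replicate 2, SLC7A3 and SLC38A3 are above the lowest colours only in HEK293, SLC43A3 only in U937 and EaHy, and the column of PC3M replicate 2 is the dimmest of the 8 for these 3 genes.

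A limma F test over the 4 lines, fitted to log2(FPKM + 0.5) of all tested genes with Benjamini-Hochberg adjustment, called 9 of the 28 tested transporters (32.1%) at an adjusted p under 0.05. The same test called 33.2% of all tested genes, so the share of transporters that differed between lines was near that of the transcriptome. The 9 were 3 cationic carriers (SLC7A1, SLC7A2, SLC7A3), 2 glutamate carriers (SLC1A1, SLC1A3), the neutral exchanger SLC1A4, the glutamine carrier SLC38A3, and 2 members of SLC43 (SLC43A1, SLC43A3). None of the tested SLC3 and SLC36 members was among them. Over 16 alternatives, SLC1A1, SLC1A3, SLC1A4 and SLC43A3 passed the F test in all 16. SLC7A2 passed in 14 of them, SLC7A1 in 10 and SLC43A1 in 8. Here SLC7A3 and SLC38A3 passed the filter on low values only through HEK293, so they had to differ from the other lines. Leaving out HEK293 replicate 1 or 2 reduced the 9 to 5 and 4, and SLC7A3 and SLC38A3 then failed the filter. Leaving out PC3M replicate 1 raised the number to 14.

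**Figure D2:**
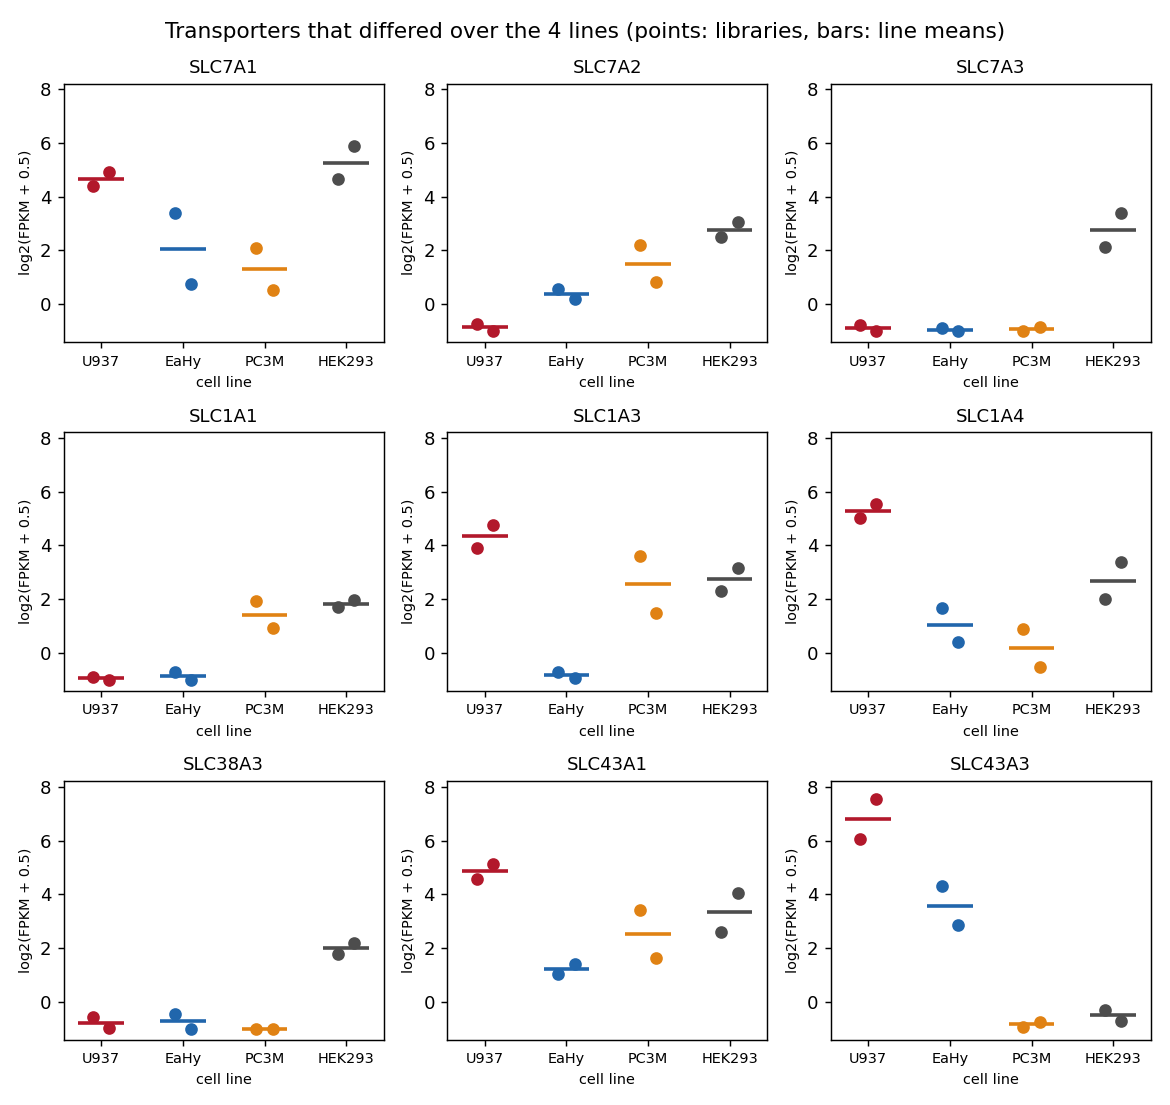
The 9 transporters called by the F test over the 4 lines, as log2(FPKM + 0.5) (vertical axis) by cell line (horizontal axis). Points are the 2 libraries of a line and bars their mean. SLC43A3 is highest in U937 and next in EaHy, SLC7A3 and SLC38A3 are up in HEK293 alone, and SLC1A1 is low in U937 and EaHy.

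The heavy chain SLC3A2 (4F2hc, or CD98), which carries the LAT and xCT light chains to the surface, was abundant in every line. It stood at 63.7 and 107 FPKM for U937, 73.3 and 56.1 for EaHy, 93.7 and 15.1 for PC3M, and 36.5 and 141 for HEK293. The ranges of the lines overlapped, and the replicates of HEK293 and PC3M lay farther apart than the line means (F test, limma adjusted p = 0.75). LAT1, or SLC7A5, the exchanger that brings leucine and other large neutral amino acids into cells, varied more. SLC7A5 was listed at 53.6 and 153 FPKM for U937, 31.7 and 124 for HEK293, 27.9 and 2.91 for PC3M, and 15.2 and 1.498 for EaHy. Both EaHy values were under all U937 and HEK293 values, while PC3M overlapped with EaHy (limma F test, adjusted p = 0.091). Between U937 and EaHy the SLC7A5 difference did not pass as deposited (log2 difference 4.02, limma adjusted p = 0.099). It passed after upper-quartile scaling (log2 difference 3.63, limma adjusted p = 0.049) and quantile normalization (3.74, adjusted p = 0.031). The pseudogene copies SLC7A5P1 and SLC7A5P2 were listed at 3.85 to 21.4 and 1.79 to 9.22 FPKM, so part of the SLC7A5 signal may have been split with them.

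The ratio of a light chain to its heavy chain within a library does not depend on the scale of that library. These ratios were chosen after values were seen and carry no test. The FPKM ratio of SLC7A5 to SLC3A2 was 0.842 and 1.43 for U937, 0.869 and 0.881 for HEK293, 0.298 and 0.193 for PC3M, and 0.208 and 0.0267 for EaHy. U937 and HEK293 were thus above PC3M and EaHy in all libraries. The ratio of SLC1A5 to SLC3A2 also set U937 and HEK293 above the other lines, with EaHy and PC3M overlapping, at 1.73 and 2.01 for U937, 1.47 and 1.40 for HEK293, 0.444 and 0.293 for EaHy, and 0.362 and 0.351 for PC3M. The ratio of SLC7A11 to SLC3A2 lay between 0.0319 and 0.139 and overlapped between the lines.

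Among the other light chains, xCT (SLC7A11), which imports cystine for glutathione synthesis in exchange for glutamate, was listed at 5.999 and 3.42 FPKM for U937, 10.2 and 2.10 for EaHy, 3.25 and 0.680 for PC3M, and 3.62 and 14.4 for HEK293. Replicates of EaHy, PC3M and HEK293 differed several fold, and the lines overlapped (limma F test, adjusted p = 0.39). The y+LAT2 chain SLC7A6, which exchanges arginine for glutamine, ranged from 1.02 to 11.8 FPKM, and SLC7A8 (LAT2), a second exchanger of neutral amino acids, from 0.668 to 3.97 FPKM. SLC7A8 was the one light chain with its highest value in PC3M replicate 2. After upper-quartile scaling SLC7A8 was lower in U937 than in PC3M (log2 difference −2.28, limma adjusted p = 0.044), and after quantile normalization as well (−2.32, adjusted p = 0.029). The deposited values did not pass (−1.19, limma adjusted p = 0.17). SLC7A7 (y+LAT1), a partner of SLC3A2 in kidney, gut and macrophages, was listed at 0.966 and 2.08 FPKM for U937 and 0.0763 and 0.240 for PC3M. It was higher in U937 by 1.57 ± 0.47 (SE, limma adjusted p = 0.046, with 2 libraries in each line), against a median of 0.94 over all genes. This call was lost after either scaling, without any library of U937, PC3M or HEK293, and under 4 other settings (adjusted p between 0.026 and 0.55 over all alternatives). Asc-1 (SLC7A10) stayed at or under 0.603 FPKM, and it overlaps LRP3 on the opposite strand, from which its reads could not be told apart, as no strand is stated for the counting. The same limit holds for SLC7A6 with SLC7A6OS and SLC7A11 with SLC7A11-AS1.

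Within SLC7, the genes called by the F test were the cationic carriers of arginine and lysine SLC7A1, SLC7A2 and SLC7A3. CAT1 (SLC7A1), the carrier most cells use, was listed at 20.7 and 29.7 FPKM for U937, 24.6 and 58.4 for HEK293, 9.92 and 1.19 for EaHy, and 3.75 and 0.941 for PC3M. All U937 and HEK293 values were above all EaHy and PC3M values. Against HEK293, SLC7A1 was lower in PC3M (log2 difference −3.96 ± 0.98, limma adjusted p = 0.025), beyond the shift of −1.26 over all genes, and it remained lower at −2.75 after upper-quartile scaling. Against U937 the PC3M libraries were lower as well (U937 minus PC3M 3.35 ± 0.98, adjusted p = 0.045), but this call was lost after either scaling. The first call was lost without PC3M replicate 2, HEK293 replicate 1 or HEK293 replicate 2 and without the filter (range 0.0084 to 0.18), the second in these fits, without either U937 library and with a replicate block (range 0.017 to 0.20). SLC7A1 was also lower in EaHy than in HEK293 after upper-quartile scaling and quantile normalization (−2.68 and −2.72, limma adjusted p = 0.047 and 0.027). The deposited values did not pass for this pair of lines (−3.20, limma adjusted p = 0.068).

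CAT2 (SLC7A2), the carrier linked to arginine use by nitric oxide synthase and arginase, was listed at 0.104 and 0.00905 FPKM for U937, 0.980 and 0.653 for EaHy, 4.06 and 1.26 for PC3M, and 5.09 and 7.91 for HEK293. As deposited, the 4 lines did not overlap, in this rising order, but after upper-quartile scaling PC3M (4.55 and 3.85) and HEK293 (4.25 and 4.57) overlapped. SLC7A2 was lower in U937 than in HEK293 (−3.63 ± 0.58, limma adjusted p = 0.0039), lower in EaHy than in HEK293 (−2.39 ± 0.58, adjusted p = 0.027) and lower in U937 than in PC3M (−2.35 ± 0.58, adjusted p = 0.026). PC3M against HEK293 did not pass, at −1.28 as deposited, −0.07 after upper-quartile scaling and, with the sign turned, 0.40 after quantile normalization. U937 against EaHy and EaHy against PC3M did not pass as deposited (−1.24 and −1.12, limma adjusted p = 0.24 and 0.29). Both passed after upper-quartile scaling (−1.26 and −1.83, adjusted p = 0.048 and 0.016) and quantile normalization (adjusted p = 0.0498 and 0.014). The first call was lost without HEK293 replicate 2 (range 0.0017 to 0.054). The second was lost without U937 replicate 2, EaHy replicate 2 or either HEK293 library, with a pseudocount of 0.1 and without the filter (range 0.011 to 0.26), and the third without either U937 library and without the filter (range 0.0014 to 0.14). CAT3 (SLC7A3), a brain and embryonic carrier, was listed at 3.93 and 10.1 FPKM for HEK293 and at or under 0.0896 in the other 6 libraries. Its log2 differences from HEK293 were −3.66 ± 0.47 in U937, −3.72 ± 0.47 in EaHy and −3.70 ± 0.47 in PC3M. Since SLC7A3 passed the filter only through HEK293, these values are a description and its calls carry no weight.

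Promoters were searched for the cores of 3 elements tied to amino acid and redox control: the C/EBP-ATF response element (TGATGNAA), through which ATF4 acts, the antioxidant response element (TGACNNNGC), bound by NRF2, and the E-box (CACGTG), bound by MYC and TFEB. Windows ran from 250 bases before to 50 bases after a gene start in RefSeq (GRCh38.p14), both strands were searched, and 31 of the 40 genes matched with 53 windows. The first core was in 6 of the 53 windows (11.3%) and in 3.62% of all 35116 windows. The second was in 7 (13.2%) against 13.3% of all, and the third in 9 (17.0%) against 7.26%. No matches in the transporter windows shared a base. The C/EBP-ATF core was in windows of SLC1A3, SLC1A4, SLC1A5, SLC38A1, SLC3A2 and SLC7A1, and the levels of these 6 genes followed no single order over the lines. Of the 9 called genes, SLC7A2, SLC7A3, SLC38A3 and SLC43A3 had no window here and were not searched. Windows of the other called genes that hold a match are shown, the matches in capitals, so that a reader can see where they lie. In SLC7A1 (chr13:29595639-29595938, minus strand), an antioxidant core starts 85 bases before the start and a C/EBP-ATF core just after it.

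SLC7A1: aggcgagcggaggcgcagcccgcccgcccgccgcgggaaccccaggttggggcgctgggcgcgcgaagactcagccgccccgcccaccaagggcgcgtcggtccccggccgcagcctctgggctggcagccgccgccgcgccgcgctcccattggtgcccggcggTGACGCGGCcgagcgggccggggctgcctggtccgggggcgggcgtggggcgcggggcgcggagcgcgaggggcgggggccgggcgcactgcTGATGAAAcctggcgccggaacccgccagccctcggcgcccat

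The glutamate carriers showed 2 different patterns. EAAT3 (SLC1A1), which takes up glutamate and cysteine in neurons and epithelia, was listed at 0.0444 and 0.00492 FPKM for U937, 0.108 and 0 for EaHy, 3.32 and 1.40 for PC3M, and 2.75 and 3.44 for HEK293. U937 and EaHy were below PC3M and HEK293 in all libraries, and PC3M and HEK293 overlapped. SLC1A1 was lower than in HEK293 in U937 (−2.77 ± 0.46, limma adjusted p = 0.0048) and in EaHy (−2.70 ± 0.46, adjusted p = 0.0064), and lower than in PC3M in both (−2.36 ± 0.46 and −2.29 ± 0.46, adjusted p = 0.013 and 0.022). With a library left out, the differences from HEK293 lay between −2.56 and −2.91 and those from PC3M between −1.78 and −2.87, with adjusted p up to 0.093. The libraries whose loss ended a call were U937 replicate 2 and HEK293 replicate 2 for U937 against HEK293, both HEK293 libraries for EaHy against HEK293, both U937 libraries for U937 against PC3M, and U937 replicate 2 and both libraries of EaHy and HEK293 for EaHy against PC3M. The last call was also lost without the filter (0.061). PC3M stood at −0.41 against HEK293 as deposited, and after quantile normalization it turned to 1.37 and passed (limma adjusted p = 0.025).

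EAAT1 (SLC1A3), the glutamate and aspartate carrier of astrocytes, was low in EaHy alone. It was listed at 0.107 and 0.0218 FPKM for EaHy, 14.6 and 26.7 for U937, 11.6 and 2.34 for PC3M, and 4.47 and 8.44 for HEK293. SLC1A3 was higher in U937 than in EaHy by 5.17 ± 0.78 (limma adjusted p = 0.0035), a call that held under all 17 alternatives. It was lower in EaHy than in HEK293 (−3.57 ± 0.78, adjusted p = 0.018) and than in PC3M (−3.38 ± 0.78, adjusted p = 0.037). The HEK293 call was lost without EaHy replicate 2 or either HEK293 library and without the filter (range 0.0035 to 0.18). The PC3M call was lost in 10 of 16 alternatives, the loss of any library but PC3M replicate 2 among them (range 0.0016 to 0.14). After upper-quartile scaling SLC1A3 was also higher in U937 than in HEK293 (1.70, limma adjusted p = 0.032), as after quantile normalization (1.95, adjusted p = 0.020). This difference did not pass as deposited (1.60, limma adjusted p = 0.29). In 2 RefSeq windows of SLC1A3 matches lie far before the start, a C/EBP-ATF core at 220 bases in the first (chr5:36596338-36596637, plus strand) and an antioxidant core at 196 bases in the second (chr5:36606356-36606655, plus strand).

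SLC1A3, first window: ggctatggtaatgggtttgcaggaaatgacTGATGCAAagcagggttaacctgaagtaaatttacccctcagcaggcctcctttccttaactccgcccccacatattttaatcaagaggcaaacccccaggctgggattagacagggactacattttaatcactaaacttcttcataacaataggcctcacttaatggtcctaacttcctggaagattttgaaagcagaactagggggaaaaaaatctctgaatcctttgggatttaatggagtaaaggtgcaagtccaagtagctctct

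SLC1A3, second window: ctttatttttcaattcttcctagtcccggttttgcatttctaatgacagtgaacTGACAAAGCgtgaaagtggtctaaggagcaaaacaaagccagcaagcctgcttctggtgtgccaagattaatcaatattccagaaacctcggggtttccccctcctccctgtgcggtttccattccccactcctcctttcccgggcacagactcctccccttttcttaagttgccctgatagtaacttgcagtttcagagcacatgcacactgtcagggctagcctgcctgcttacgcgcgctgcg

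The neutral exchangers were led by ASCT2 (SLC1A5), a main entry route of glutamine in dividing cells. SLC1A5 was listed at 111 and 216 FPKM for U937, 53.6 and 196 for HEK293, 32.6 and 16.4 for EaHy, and 33.9 and 5.29 for PC3M. All U937 and HEK293 values were above all EaHy and PC3M values, with the replicates of HEK293 and PC3M several fold apart (F test, limma adjusted p = 0.068). U937 was higher than PC3M by 3.46 ± 1.03 (adjusted p = 0.047). This value was 2.22 after upper-quartile scaling and 2.17 without PC3M replicate 2, and the call was lost without PC3M replicate 2, EaHy replicate 2, or either library of U937 or HEK293, with a replicate block and without the filter (range 0.020 to 0.21). After upper-quartile scaling and quantile normalization SLC1A5 was also higher in U937 than in EaHy (2.30 and 2.68, limma adjusted p = 0.041 and 0.026). This difference did not pass as deposited (2.71, limma adjusted p = 0.15).

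ASCT1 (SLC1A4), which exchanges alanine, serine and cysteine, set U937 apart. It was listed at 32.1 and 45.9 FPKM for U937, 3.505 and 9.998 for HEK293, 2.68 and 0.837 for EaHy, and 1.35 and 0.197 for PC3M. The U937 values were above all others, and EaHy and PC3M overlapped. SLC1A4 was higher in U937 than in PC3M by 5.10 ± 0.78 (limma adjusted p = 0.0045), a call that held under all 16 alternatives, and higher than in EaHy by 4.24 ± 0.78 (adjusted p = 0.0085), a call lost without U937 replicate 2 or EaHy replicate 2 (0.070 and 0.060, range 0.0028 to 0.070). Against HEK293 the U937 difference did not pass as deposited (2.59, limma adjusted p = 0.063). It passed after upper-quartile scaling (2.68, adjusted p = 0.015) and quantile normalization (3.05, adjusted p = 0.0083). SLC1A4 was lower in PC3M than in HEK293 (−2.51 ± 0.78, adjusted p = 0.045), but at −1.64 and −1.04 after upper-quartile scaling and quantile normalization this did not pass, nor without PC3M replicate 2 (−1.81), any U937 or HEK293 library or the filter, nor with a replicate block (range 0.026 to 0.30). Within each library, the FPKM ratio of SLC1A4 to SLC1A5 was 0.291 and 0.212 for U937 and 0.0373 to 0.0823 in the other 6 libraries, so SLC1A4 was higher in U937 also relative to its closest relative in this family. In the SLC1A4 window (chr2:64989149-64989448, plus strand) a C/EBP-ATF core in reverse orientation lies across the gene start.

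SLC1A4: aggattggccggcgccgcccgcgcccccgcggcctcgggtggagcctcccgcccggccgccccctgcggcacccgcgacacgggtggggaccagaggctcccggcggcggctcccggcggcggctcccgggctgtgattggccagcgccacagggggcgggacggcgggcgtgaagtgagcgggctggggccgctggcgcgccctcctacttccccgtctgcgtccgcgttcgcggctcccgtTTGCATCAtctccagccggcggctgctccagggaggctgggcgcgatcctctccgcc

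Among the SLC38 carriers, the sodium-coupled system A carriers were present in every library. SNAT2 (SLC38A2), which cells induce when amino acids run short, was listed at 68.4 and 39.6 FPKM for U937, 66.8 and 93.8 for EaHy, 35.4 and 9.30 for PC3M, and 34.4 and 69.5 for HEK293. SNAT1 (SLC38A1), a glutamine and alanine carrier, was listed at 28.1 and 25.7 FPKM for U937, 17.9 and 8.64 for EaHy, 17.6 and 5.02 for PC3M, and 28.6 and 50.02 for HEK293. Neither passed the F test (limma adjusted p = 0.22 and 0.18), and the lines overlapped. The ratio of SLC38A2 to SLC38A1 within a library was 3.73 and 10.8 for EaHy and 1.201 to 2.43 in the other 6. The third system A member, SLC38A4, was at or under 0.0760 FPKM.

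The system N carriers, which move glutamine and histidine in both directions, were at or under 4.04 FPKM in all libraries. SNAT3 (SLC38A3), known from liver, kidney and brain, was listed at 2.98 and 4.04 FPKM for HEK293, at 0 in both PC3M libraries, and at or under 0.235 in U937 and EaHy. Its log2 differences from HEK293 were −2.75 ± 0.38 in U937 and −2.71 ± 0.38 in EaHy. SLC38A3 too passed the filter only through HEK293, so these values are a description and its calls carry no weight. SNAT5 (SLC38A5) was listed at 1.43 and 0.356 FPKM for U937, 1.73 and 0.463 for EaHy, and at most 0.135 in PC3M and HEK293 (limma F test, adjusted p = 0.10). SLC38A5 passed the filter only through U937 replicate 1 and EaHy replicate 1, so these values are a description. After quantile normalization it was higher in EaHy than in HEK293 (1.53, limma adjusted p = 0.037), a call that for the same reason carries no weight. That difference did not pass as deposited (1.35) or after upper-quartile scaling (1.41), at a limma adjusted p of 0.14 in both.

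The lysosomal members of SLC38 were called in no comparison, which with 2 libraries per line does not show that their levels were equal. SLC38A9, the arginine sensor that signals to mTORC1, ranged from 1.57 to 10.04 FPKM, and SLC38A7, which exports glutamine and asparagine from lysosomes, from 0.686 to 5.83 FPKM (limma F test, adjusted p = 0.39 and 0.66). SLC38A10, an intracellular member, was listed at 25.8 and 60.7 FPKM for U937 and 3.35 to 26.3 in the other lines (adjusted p = 0.14). SLC38A6, a little-studied member, was listed at 10.05 and 12.3 FPKM for EaHy, 4.39 and 6.95 for PC3M, 2.63 and 4.31 for HEK293, and 2.59 and 1.99 for U937. It was lower in U937 than in EaHy (−2.06 ± 0.57, limma adjusted p = 0.049), a call lost in 10 of 17 alternatives, the loss of any library of U937, EaHy or HEK293 among them (range 0.028 to 0.29). After quantile normalization SLC38A6 was higher than in HEK293 in EaHy and PC3M (2.37 and 2.25, limma adjusted p = 0.036 and 0.045), and lower in U937 than in PC3M (−2.13, adjusted p = 0.040). None of these differences passed as deposited (limma adjusted p = 0.11, 0.40 and 0.18) or after upper-quartile scaling (0.097, 0.093 and 0.054). SLC38A6 overlaps TRMT5 on the opposite strand, which was listed at 5.31 to 18.3 FPKM.

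The proton-coupled SLC36 carriers ranged up to 11.02 FPKM. SLC36A4 (PAT4), a high-affinity carrier of proline and tryptophan, was listed at 9.44 and 11.02 FPKM for HEK293, 1.87 and 7.09 for U937, 6.37 and 2.16 for EaHy, and 2.58 and 0.676 for PC3M. SLC36A1 (PAT1), an exporter of small amino acids from lysosomes, ranged from 0.306 to 4.20 FPKM. SLC36A2 (PAT2), a glycine and proline carrier of kidney, was between 0.723 and 1.19 FPKM for U937, HEK293 and EaHy replicate 1, and at most 0.0816 in the 3 libraries rich in RMRP. The limma F test gave adjusted p = 0.15, 0.22 and 0.099 for these 3 genes. The SLC36A2 value thus went along with the RMRP level across libraries, and the part of that in its F test was not tested.

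SLC43 held the widest differences among the transporters. SLC43A3, a family member that carries purine bases instead of amino acids, was listed at 66.2 and 188 FPKM for U937, 19.2 and 6.82 for EaHy, 0.0312 and 0.0968 for PC3M, and 0.323 and 0.106 for HEK293. The U937 values were above those of EaHy, and both lines were above PC3M and HEK293 in every library. SLC43A3 was higher in U937 than in HEK293 by 7.31 ± 0.73 (limma adjusted p = 0.00073) and than in PC3M by 7.64 ± 0.73 (adjusted p = 0.00065), and both calls held under all alternatives. In EaHy it was higher than in HEK293 by 4.09 ± 0.73 (adjusted p = 0.0075) and than in PC3M by 4.41 ± 0.73 (adjusted p = 0.0097), and U937 was above EaHy by 3.22 ± 0.73 (adjusted p = 0.022). The EaHy call against HEK293 was lost without either HEK293 library (range 0.0013 to 0.093), and that against PC3M without EaHy replicate 1 or PC3M replicate 2 (range 0.0031 to 0.052). The difference of U937 from EaHy was 2.47 without U937 replicate 2 and 2.51 without EaHy replicate 2, and it was lost in both fits, without the filter and in the 5 libraries poor in RMRP (range 0.0041 to 0.17). Some monocytic markers were also present in EaHy: LAPTM5 stood at 33.5 and 12.6 FPKM and CD33 at 8.24 and 4.59 FPKM. Of the 7 markers, 6 and 3 reached 0.5 FPKM in EaHy replicates 1 and 2, and SPI1, MPO and PTPRC were at 0 in replicate 2. Their part in the EaHy level of SLC43A3 was not tested.

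The branched-chain amino acid carriers of the same family ran in opposite directions. LAT3 (SLC43A1), first known from prostate cancer cells, was listed at 23.2 and 34.7 FPKM for U937, 5.59 and 16.2 for HEK293, 10.2 and 2.58 for PC3M, and 1.53 and 2.13 for EaHy. U937 was above the other lines, EaHy was below them, and HEK293 and PC3M overlapped. SLC43A1 was higher in U937 than in EaHy by 3.64 ± 0.80 (limma adjusted p = 0.019). After upper-quartile scaling and quantile normalization it was also lower in EaHy than in PC3M (−2.08 and −2.22, adjusted p = 0.029 and 0.042). The EaHy difference from PC3M did not pass as deposited (−1.31, limma adjusted p = 0.37). LAT4 (SLC43A2), which carries branched-chain amino acids and phenylalanine, was listed at 7.06 and 10.8 FPKM for EaHy, 1.51 and 6.35 for HEK293, 2.54 and 1.14 for PC3M, and 0.229 and 1.53 for U937. SLC43A2 was lower in U937 than in EaHy (−2.93 ± 0.79, limma adjusted p = 0.045). The SLC43A1 call was lost without either library of U937 or EaHy and without the filter (range 0.0042 to 0.13), and the SLC43A2 call in 10 of 17 alternatives, the loss of any library of U937, EaHy or PC3M among them (range 0.012 to 0.28). Within each library the ratio of SLC43A2 to SLC43A1 was 4.61 and 5.06 for EaHy, 0.250 to 0.441 in PC3M and HEK293, and 0.00984 and 0.0440 for U937. EaHy thus held more LAT4 than LAT3 message and the other 3 lines held less. An E-box lies 112 bases before the start in a window of SLC43A1 (chr11:57515653-57515952, minus strand).

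SLC43A1: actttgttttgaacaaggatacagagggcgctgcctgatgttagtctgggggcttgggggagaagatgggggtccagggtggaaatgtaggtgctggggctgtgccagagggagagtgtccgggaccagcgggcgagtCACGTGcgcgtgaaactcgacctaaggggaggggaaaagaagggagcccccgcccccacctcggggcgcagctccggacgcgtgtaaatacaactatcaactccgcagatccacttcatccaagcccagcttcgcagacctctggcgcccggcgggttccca

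Counted by comparison with HEK293, 5 transporters passed in U937, 6 in EaHy and 4 in PC3M, and SLC7A3 and SLC38A3, whose calls the filter fixed, are in each count. More were lower than higher, as among all tested genes. In U937, 1 of 28 was higher (SLC43A3), where 4.47% of all tested genes were higher, and 4 were lower (SLC1A1, SLC7A2, SLC7A3, SLC38A3), where 10.6% of all were lower. In EaHy, 1 was higher (SLC43A3, 4.55% of all genes) and 5 were lower (the same 4 and SLC1A3, 9.8% of all genes). In PC3M, 0 were higher, where 2.39% of all genes were, and 4 were lower (SLC1A4, SLC7A1, SLC7A3, SLC38A3), where 25.3% of all genes were lower. For PC3M, 11 of the 28 had an unadjusted limma p under 0.05, as had 44.6% of all tested genes. The median log2 difference of the 28 was −0.35 in U937, −0.87 in EaHy and −1.27 in PC3M, beside −0.22, −0.67 and −1.26 over all tested genes. These 3 comparisons share the HEK293 libraries. With upper-quartile scaling 3 were higher and 4 lower in U937, 1 and 6 for EaHy, and 0 and 3 for PC3M, and with quantile normalization 3 and 4, 3 and 6, and 2 and 3. Among all tested genes, 16%, 15.7% and 19.1% passed in either direction after upper-quartile scaling, and 17.3%, 17.4% and 16.9% after quantile normalization. Leaving out either HEK293 library lowered the counts of all 3 lines, and the share of all genes called fell as well. The PC3M count also moved without EaHy replicate 1 or either PC3M library, as did that share.

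**Figure D3:**
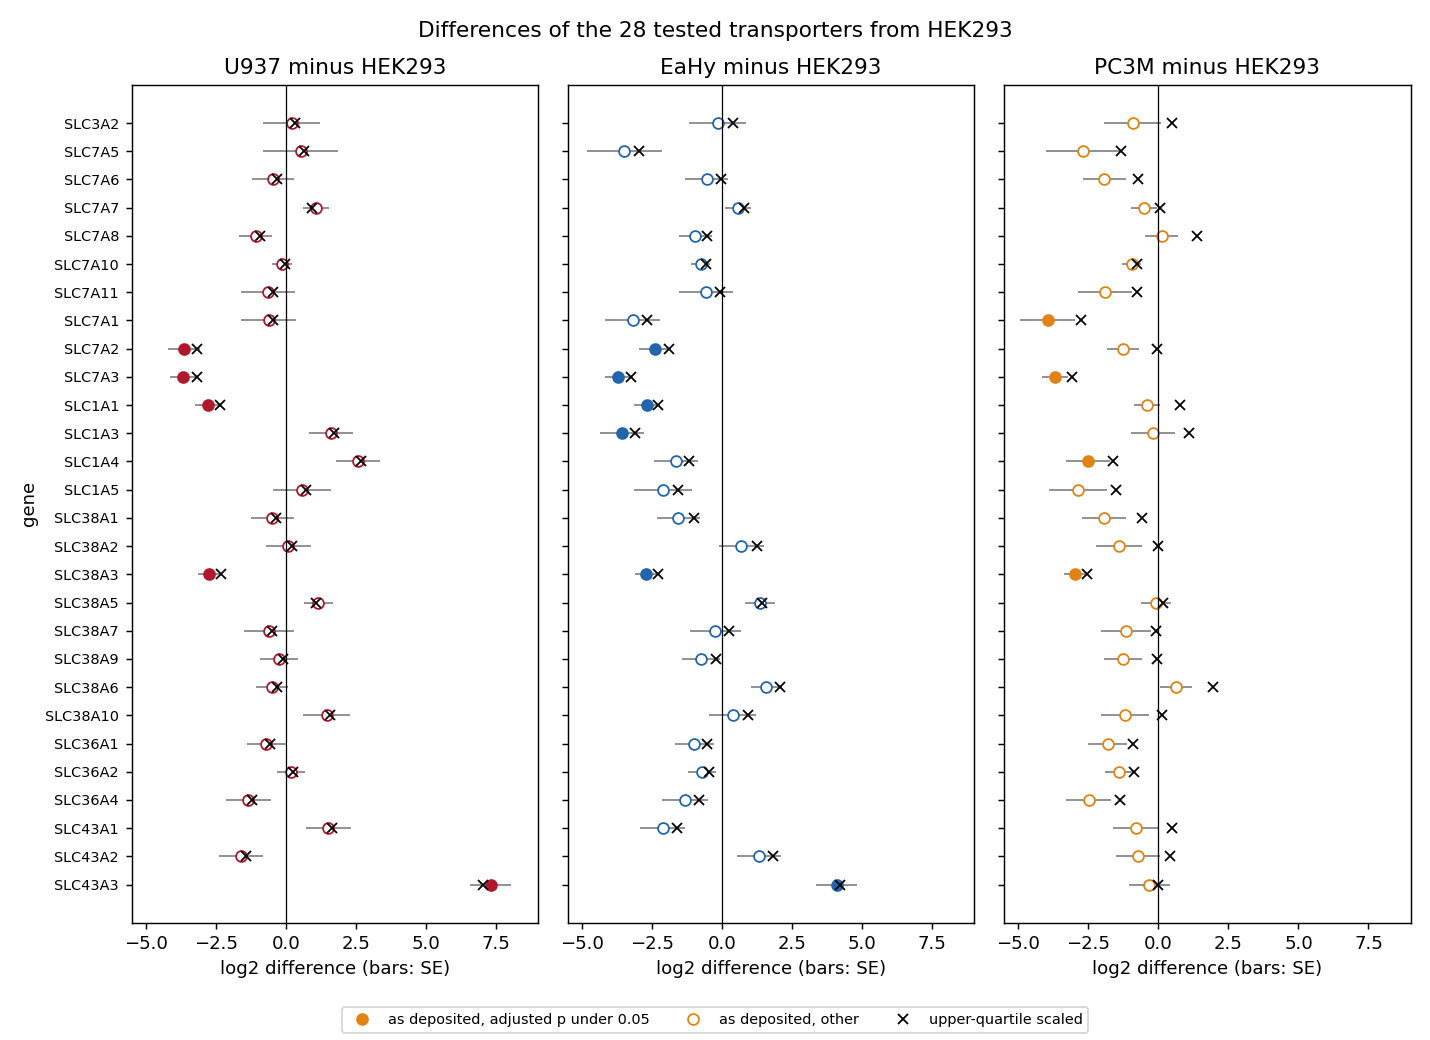
Log2 differences of the 28 tested transporters (vertical axis) from HEK293 in U937, EaHy and PC3M (panels), on log2(FPKM + 0.5), with standard errors as bars. Filled points passed the limma test at an adjusted p under 0.05, open points did not, and crosses give the value after upper-quartile scaling, which lies to the right of the deposited value for all 28 genes in PC3M. SLC43A3 at 7.31 in U937 and 4.09 for EaHy is the point farthest to the right.

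Between the other lines, 6 transporters differed between U937 and EaHy and 7 between U937 and PC3M. Against EaHy, 4 were higher in U937 (SLC1A3, SLC1A4, SLC43A1, SLC43A3; 5.95% of all genes were higher) and 2 lower (SLC38A6, SLC43A2; 6.77% of all). Against PC3M, 5 were higher in U937 (SLC1A4, SLC1A5, SLC7A1, SLC7A7, SLC43A3; 17.2% of all) and 2 lower (SLC1A1, SLC7A2; 4.57% of all). The shares against PC3M, 17.9% higher and 7.14% lower, are near those of all genes. After upper-quartile scaling the split against PC3M was 3 higher and 3 lower, and after quantile normalization 3 and 4. In these fits 25% and 24.9% of all genes differed between U937 and PC3M. EaHy differed from PC3M in 3 transporters, where 7.71% of all genes differed. It was higher for SLC43A3 (6.28% of all genes were higher) and lower for SLC1A1 and SLC1A3 (1.44% of all), a split of 1 higher and 4 lower after either scaling, with SLC7A2 and SLC43A1 as the added genes. Among all genes, 15.1% and 14.5% differed between EaHy and PC3M after upper-quartile scaling and quantile normalization. The counts in these comparisons also moved with the library left out, as did the share of all genes called.

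The make-up of transporter message within a library does not depend on the scale of that library, and it shows which carriers led in each line. The 40 genes summed to 537 and 974 FPKM for U937, 318 and 252 for EaHy, 281 and 67.7 for PC3M, and 287 and 800 for HEK293. SLC1A5 made up 20.6% and 22.2% of this sum in U937, 18.7% and 24.5% in HEK293, 10.3% and 6.51% in EaHy, and 12.1% and 7.82% in PC3M. SLC3A2 ran the other way, at 11.9% and 10.998% in U937, 12.7% and 17.6% in HEK293, 23.1% and 22.2% in EaHy, and 33.3% and 22.3% in PC3M. For both genes the libraries of U937 and HEK293 did not overlap with those of EaHy and PC3M. SLC38A2 was the leading gene of EaHy replicate 2 with 37.2%, and it made up 21.0% in EaHy replicate 1 and 4.07% to 13.7% in the other lines. SLC43A3 made up 12.3% and 19.3% in U937, 6.03% and 2.71% in EaHy, and at most 0.143% elsewhere. The 5 cationic genes together made up 11.8% and 9.60% in HEK293 and 0.76% to 4.005% in the other 6 libraries. Shares sum to a fixed total, so a rise of one gene lowers the others, and no test was made of them.

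**Figure D4:**
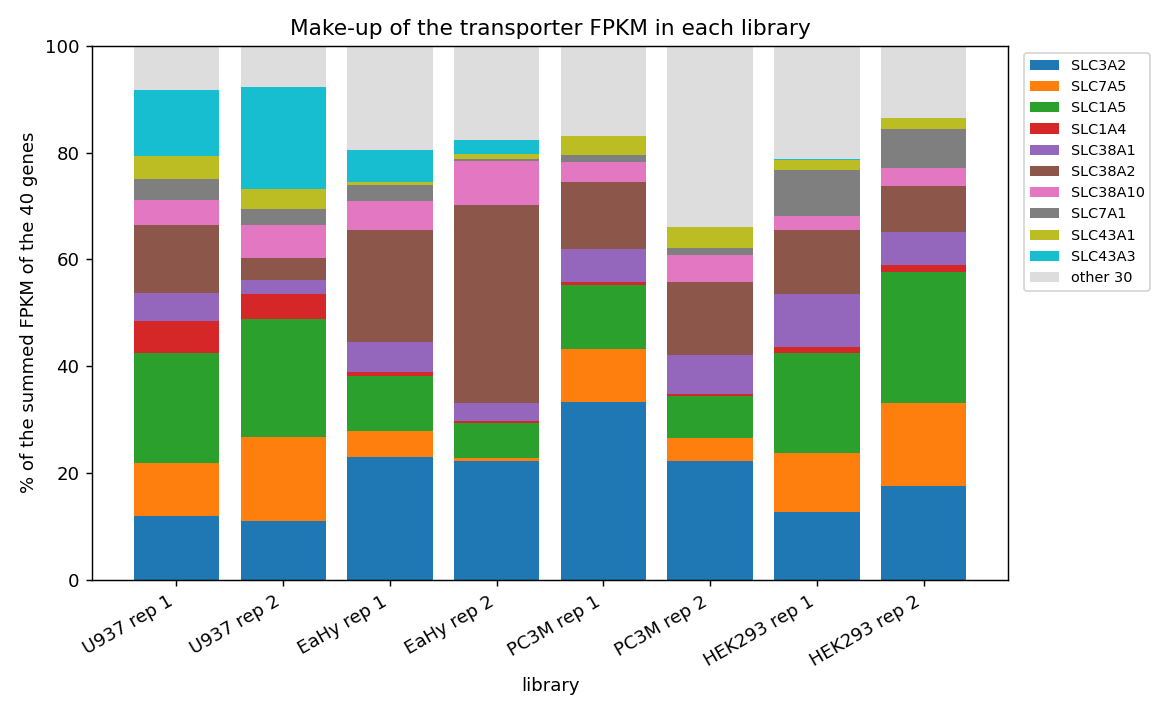
Share of each of 10 abundant transporters in the summed FPKM of the 40 genes (vertical axis, %) in the 8 libraries (horizontal axis), with the other 30 genes in grey. SLC43A3 is visible in U937 and EaHy, SLC38A2 reaches 37.2% in EaHy replicate 2, and SLC1A5 with SLC7A5 takes a larger share in U937 and HEK293 than in EaHy and PC3M.

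Amino acid carriers of other families, 28 genes, gave 18 tested and 4 called by the F test (22.2%, against 33.2% of all genes). SLC6A15, a neuronal branched-chain amino acid and proline carrier, was listed at 20.3 and 27.9 FPKM for HEK293 and at or under 0.141 elsewhere. SLC16A10 (TAT1), an exporter of aromatic amino acids, was listed at 7.07 and 8.87 FPKM for U937, 5.68 and 8.06 for HEK293, 1.23 and 0.656 for PC3M, and 0.0926 and 0 for EaHy (limma F test, adjusted p = 0.0021). SLC6A9, a glycine carrier, was listed at 2.90 and 14.8 FPKM for HEK293, 2.46 and 2.72 for PC3M, and at or under 0.252 in U937 and EaHy (adjusted p = 0.012). SLC17A7, a vesicular glutamate carrier, was listed at 0.819 and 0.557 FPKM for HEK293 and at or under 0.107 elsewhere. SLC6A15 and SLC17A7, 2 of the 4 called, passed the filter only through HEK293 and had to differ, so their calls carry no weight. Against HEK293, 2, 3 and 4 of the 18 were lower in U937, EaHy and PC3M, and 0 were higher in each, where 10.6%, 9.8% and 25.3% of all tested genes were lower. At an unadjusted limma p under 0.05 in either direction there were 4, 5 and 6, beside 23.2%, 27.5% and 44.6% of all genes, so these counts are no result about the carriers.

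Of the 34 genes listed for amino acid sensing by mTORC1, all were tested and 7 were called by the F test (20.6%, against 33.2% of all genes). SESN2, a leucine sensor that is also a target of the stress factor ATF4, was listed at 20.2 and 86.8 FPKM for HEK293, 12.4 and 7.09 for U937, 5.03 and 5.67 for EaHy, and 1.60 and 1.49 for PC3M (limma F test, adjusted p = 0.015). Its relatives SESN1 and SESN3 were called too, as was the GTPase RRAGC. The GTPase RRAGD, a partner of SLC38A9 in signalling to mTORC1, was listed at 11.7 and 12.6 FPKM for U937 and 0.0954 and 0.127 for EaHy (adjusted p = 0.0027). TFEB, the factor that turns on lysosomal genes, was listed at 5.44 and 17.6 FPKM for U937 and 0.166 to 3.07 elsewhere (adjusted p = 0.018). FNIP1, which acts with folliculin on RRAGC and RRAGD, was listed at 10.2 and 9.71 FPKM for EaHy and 0.911 and 0.263 for U937 (adjusted p = 0.017). Against HEK293, 0, 3 and 8 of the 34 were lower in U937, EaHy and PC3M, and 0 were higher in each. The 8 in PC3M (23.5%) are near the 25.3% of all genes, and in U937 and EaHy 10.6% and 9.8% of all genes were lower. At an unadjusted limma p under 0.05 there were 5, 3 and 17, beside 23.2%, 27.5% and 44.6% of all genes.

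Of 29 genes of glutamine, cystine and arginine metabolism, 28 were tested and 9 were called by the F test (32.1%, near the 33.2% of all genes). HEK293 was highest for the enzymes that make cysteine from homocysteine. CBS was listed at 101 and 217 FPKM for HEK293 and 1.39 to 15.1 elsewhere, and CTH at 12.0 and 43.6 FPKM for HEK293 and 0.523 to 9.50 elsewhere (limma F test, adjusted p = 0.014 and 0.012). Asparagine synthetase (ASNS) was listed at 95.9 and 257 FPKM for HEK293 and 1.80 to 43.7 elsewhere (adjusted p = 0.034). Glutamine synthetase (GLUL) was listed at 120 and 144 FPKM for U937, 60.2 and 93.2 for HEK293, 43.4 and 40.3 for PC3M, and 4.91 and 11.1 for EaHy (adjusted p = 0.0098). Of the gamma-glutamyl transferase family, GGT7 was listed at 13.4 and 16.9 FPKM for HEK293 and at most 0.593 elsewhere, for EaHy replicate 1. No other library outside HEK293 reached 0.5 FPKM. GGT7 thus passed the filter only through HEK293, and its call carries no weight. GGT5 was listed at 17.9 and 10.3 FPKM for EaHy and at or under 0.216 elsewhere, and it passed the filter only through EaHy, so its call carries no weight. Against HEK293, 3, 6 and 7 of the 28 were lower in U937, EaHy and PC3M, and 0, 1 and 0 were higher. GGT7, whose calls the filter fixed, is in each count of lower genes, and GGT5 is the 1 higher gene. Of all genes 10.6%, 9.8% and 25.3% were lower, so the U937 and PC3M shares (10.7% and 25.0%) are at the background. At an unadjusted limma p under 0.05 there were 8, 9 and 11, beside 23.2%, 27.5% and 44.6% of all genes.

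Of 21 regulators and partners of the carriers, 18 were tested and 6 were called by the F test (33.3%, near the 33.2% of all genes). CD44, a surface protein that stabilises xCT, was listed at 168 and 38.7 FPKM for EaHy, 15.7 and 17.6 for U937, 11.5 and 3.27 for PC3M, and 0.518 and 0.0332 for HEK293 (limma F test, adjusted p = 0.0041). LAPTM4B, a lysosomal protein that binds LAT1 and its heavy chain, was listed at 76.4 and 149 FPKM for HEK293, 86.0 and 16.3 for PC3M, 6.17 and 3.58 for EaHy, and 0.298 and 0.162 for U937 (adjusted p = 0.0021). ATF3, a stress-induced relative of ATF4, was listed at 73.1 and 49.5 FPKM for HEK293 and 1.36 to 5.29 elsewhere (adjusted p = 0.0032). NEDD4, a ubiquitin ligase, and CEBPG, a partner of ATF4, were lower in PC3M than in HEK293 (−2.12 and −2.98, adjusted p = 0.036 and 0.032). Both differences are as deposited and are to be read against the shift of PC3M over all genes given above. TMEM27 (collectrin), a kidney partner of amino acid carriers, was listed at 1.65 and 0.952 FPKM for HEK293 and at or under 0.427 elsewhere, and it passed the filter only through HEK293, so its call carries no weight. Against HEK293, 3, 3 and 4 of the 18 were lower in U937, EaHy and PC3M, and 1 was higher in each, CD44. Of all genes 10.6%, 9.8% and 25.3% were lower and 4.47%, 4.55% and 2.39% higher.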

How the data were processed

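Total RNA depleted of ribosomal RNA was sequenced with paired-end reads of libraries from 4 cell lines, 2 per line. Per the submitters' processing notes, reads were trimmed with cutadapt, aligned to hg19 with TopHat2 2.0.11 and quantified with Cufflinks 2.2.1. The values the authors deposited are FPKM, with a single column per library. Further scaling, the gene annotation and the strand setting are not given in the sources used here.

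The filter on low values kept 16295 of 23615 genes, those that reached 0.5 FPKM in 2 or more libraries. A limma 3.58.1 model (R 4.3.3) with a term per line, and a variance prior that follows expression, was fitted to log2(FPKM + 0.5) of all of them. Fold changes are on that scale, which understates changes of low genes. An F test over the 4 lines and 6 pairwise comparisons were made, two-sided, with Benjamini-Hochberg adjustment within each over all tested genes, and an adjusted p under 0.05 was called. Differences between the replicates of a line correlated across lines at −0.15 to 0.33, so replicate numbers were not taken as pairs. The script was tested on simulated data.

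The transporters, the 4 related lists, their roles and the motifs were chosen with earlier results of these data known. Genes were named by a rule: every tested transporter, all values for those called by the F test, and up to 6 called genes per related list. The ratios and the shares were chosen after values were seen. Promoter windows are from RefSeq (GRCh38.p14), overlaps from GENCODE, both of another build than hg19, so no hg19 positions are given. Alternatives changed the pseudocount, the filter, the scaling, the variance prior, the block and the libraries used; the fit of the 5 libraries poor in RMRP was added after the data were seen.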

Additional observations from a re-analysis of the deposited data

How the results depend on the processing

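The number of transporters called by the F test was 9, and it lay between 4 and 14 when a library was left out. Over the same fits the numbers were 1 to 5 for U937 against HEK293, 0 to 9 for EaHy against HEK293, 0 to 10 for PC3M against HEK293, 1 to 6 for U937 against EaHy, 2 to 13 for U937 against PC3M and 0 to 3 for EaHy against PC3M. A lone library was assumed there to vary like the other lines. In the pairwise comparisons the share of all tested genes called moved with the library left out as well. These ranges are therefore no result about the transporters. Without the filter on low values, 2 instead of 4 were called for PC3M against HEK293, 3 instead of 6 for U937 against EaHy, 3 instead of 7 for U937 against PC3M and 1 instead of 3 for EaHy against PC3M; more genes were then tested. Without the filter, 9.53%, 6.48%, 6.47% and 3.13% of all genes were called in these comparisons. Upper-quartile scaling and quantile normalization each gave 5 instead of 3 for EaHy against PC3M, where 15.1% and 14.5% of all genes were called. A replicate block gave 4 instead of 7 for U937 against PC3M, and it moved no other of these counts by over 1.5 times; the cause was not tested. In the 5 libraries poor in RMRP, which leave EaHy with a single library, 3 instead of 6 were called for U937 against EaHy, 6 instead of 5 for U937 against HEK293 and 6 for EaHy against HEK293 as before. No called difference of a transporter changed sign under these alternatives: of 501 refitted values, 388 stayed called and 113 did not. Among the 388 are all refitted differences of SLC7A3 and SLC38A3 from HEK293. The filter fixed these calls, so they add nothing to that count as a sign of stability. Without read counts, depth could not be used to judge the genes listed at or near 0.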
